A study of Xenopus tropicalis with 8 samples.

Results

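The genes described here belong to families that drive the cell cycle and the division of chromosomes: cyclins and cyclin-dependent kinases, replication origin proteins, centromere proteins, Polo and NEK kinases, kinesin motors, SMC proteins and E2F factors. They were chosen by symbol, from probes whose transcript accession had a name of one of these families in the RefSeq gene table of Xenopus tropicalis. Of 222 such genes in the table, 65 were matched to a probe on the array, and 54 of these were bright enough to test, with a probe well above background on 3 or more arrays in 1 or both groups of 4. These 54 genes stood among 3844 named genes tested. The other genes of the families, among them ccnb1, cdk1, aurka and plk1, were not analysed here.

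Testes of juvenile males of this frog, also called Silurana tropicalis, were kept as tissue in L-15 medium at 26 °C for 6 h, either with 5 µM finasteride, which blocks steroid 5-alpha-reductase, or without the drug (0 µM). No strain or genotype is given for either group. The design text names 8 samples in each arm, whereas the series holds 4 arrays a group, all of them used here. The labels do not say whether an array holds a single animal or a pool. Because the labels do not tie arrays to separate animals, p-values rest on the spread over arrays, which may be technical. A level is the log2 processed intensity of a gene's probe minus the 75th percentile of all probes on that array, so a level of 0 is that percentile, and levels were compared only between arrays for the same probe.

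In dividing cells, cyclins switch on cyclin-dependent kinases in turn, the origin recognition complex and MCM proteins license DNA for copying, and condensin and cohesin, built on SMC proteins, fold and hold the copied chromosomes. Centromere proteins then tie chromosomes to the spindle, kinesins build and move along it, and the anaphase-promoting complex destroys cyclins so that the cell can leave division. In a juvenile testis, spermatogonia divide by mitosis and spermatocytes by meiosis, and these families serve both. The families also hold genes with other known work, such as the CDC42 effector genes (cdc42ep1 to cdc42ep4), the Mediator cyclin ccnc, the transcription kinase cdk13 and the ciliary motor gene kif3a, and these were kept because the choice was by symbol.

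The 75th percentile of intensity ran from 719 to 1798 over the arrays, and no probe was saturated. The share of probes well above background ran from 73.3% to 77.2% on control arrays. On finasteride arrays it ran more widely, from 70.5% (finasteride 4) to 86.9% (finasteride 3). Its part in the values below was not tested. Germ cell transcripts were present on every array, with piwil1 of the piRNA pathway and the meiotic genes hormad1 and ythdc2 well above background on all 8, whereas the xhyb probe of the synaptonemal complex gene sycp3 was on none. The log2 fold change was -0.063 (95% interval -0.52 to 0.39) for hormad1 and 0.12 (-0.35 to 0.59) for ythdc2. Among markers of other cell types, 0 passed in limma. The groups did not overlap, on the higher side, for epb41 of the red cell membrane (1.26, 95% interval 0.67 to 1.85). Its xhyb probe, seen on 1 control and 4 finasteride arrays, passed the filter only through the finasteride group, where it is higher. Groups also did not overlap for the keratin gene krt18.2 listed for Sertoli cells (0.69, 0.23 to 1.16), again on the higher side. The same held for spata6 of the sperm tail (1.00, -0.11 to 2.11). For spata6, finasteride 3 lay at 0.25, against -2.39 to -1.89 on the other finasteride arrays. Of all probes, 1.02% did not overlap on the higher side. The red cell gene slc4a1 stood at -0.72 (-2.47 to 1.03) and the Sertoli gene cldn11 at 0.10 (-0.40 to 0.61), and the part of such cells in the values below was not tested. In whole tissue, fewer cells of a type and less RNA per cell cannot be told apart. The arrays lay on 2 slides with 2 of each group, and no probe differed between the 2 slides (0% of the probes tested past a limma adjusted p of 0.05, with group as a covariate), nor did any of the 54 genes (smc4 alone had an unadjusted p under 0.05). Positions on a slide alternated between the groups, and an effect of position cannot be told apart from one of treatment.

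Of the 65 genes on a probe, 50 were well above background on all 8 arrays. The remaining 4 of the 54 were seen less fully: mcm3 and cdk5r1 on 1 control array and 3 finasteride arrays, and cenpf and e2f8 on 4 and 3. The genes mcm3 and cdk5r1 passed the filter only through the finasteride group, where both are higher. Both count among the higher values below. The genes cenpf and e2f8 passed through both groups but missed an array. The values of these 4 rest partly on dim signal. Of the 11 genes left out, 6 were well above background on no array: the checkpoint kinase gene chek1, the Xenopus CDK inhibitor gene cdknx and the kinesin genes kif26a, kif2a, kif5c and kifc1. Both probes of kif2a and of kifc1 were read, and the brighter one decided. The others were the kinesin genes kif14l, on 2 arrays of each group, kifc2 on 1 control and 2 finasteride arrays, kif21a on 0 and 2, and kif3c and kifc3 each on 0 and 1. Kinesins thus lost 9 of 17 genes to the filter.

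None of the 54 genes tested was called higher or lower with finasteride. In limma, 0 of the 54 passed the threshold of 0.05 on the adjusted p in either direction, as for all probes (0% of 25652 higher, 0% lower), and the lowest adjusted p among them was 1.00. Values were higher for 26 and lower for 28, with a median log2 fold change of -0.0030, against 0.0060 over all named genes. The 95% intervals of 48 of the 54 lay between -1 and 1 on the log2 scale, that is, within a 2-fold difference either way, as did those of 84.9% of all named genes. Without adjustment, a p under 0.05 was reached by 3 genes on the higher side (cenps, cenpx and birc5) and 4 on the lower (smc4, e2f6, kif18b and orc1), where 2.28% of all probes were higher and 1.72% lower at that p. Groups did not overlap for 2 genes on the higher side, cenps and cenpx, and for 1 on the lower, orc1, where 1.02% and 1.06% of all probes did the same. The adjusted p was 1.00 in limma for every gene named below, in this list or outside it.

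**Figure D1:**
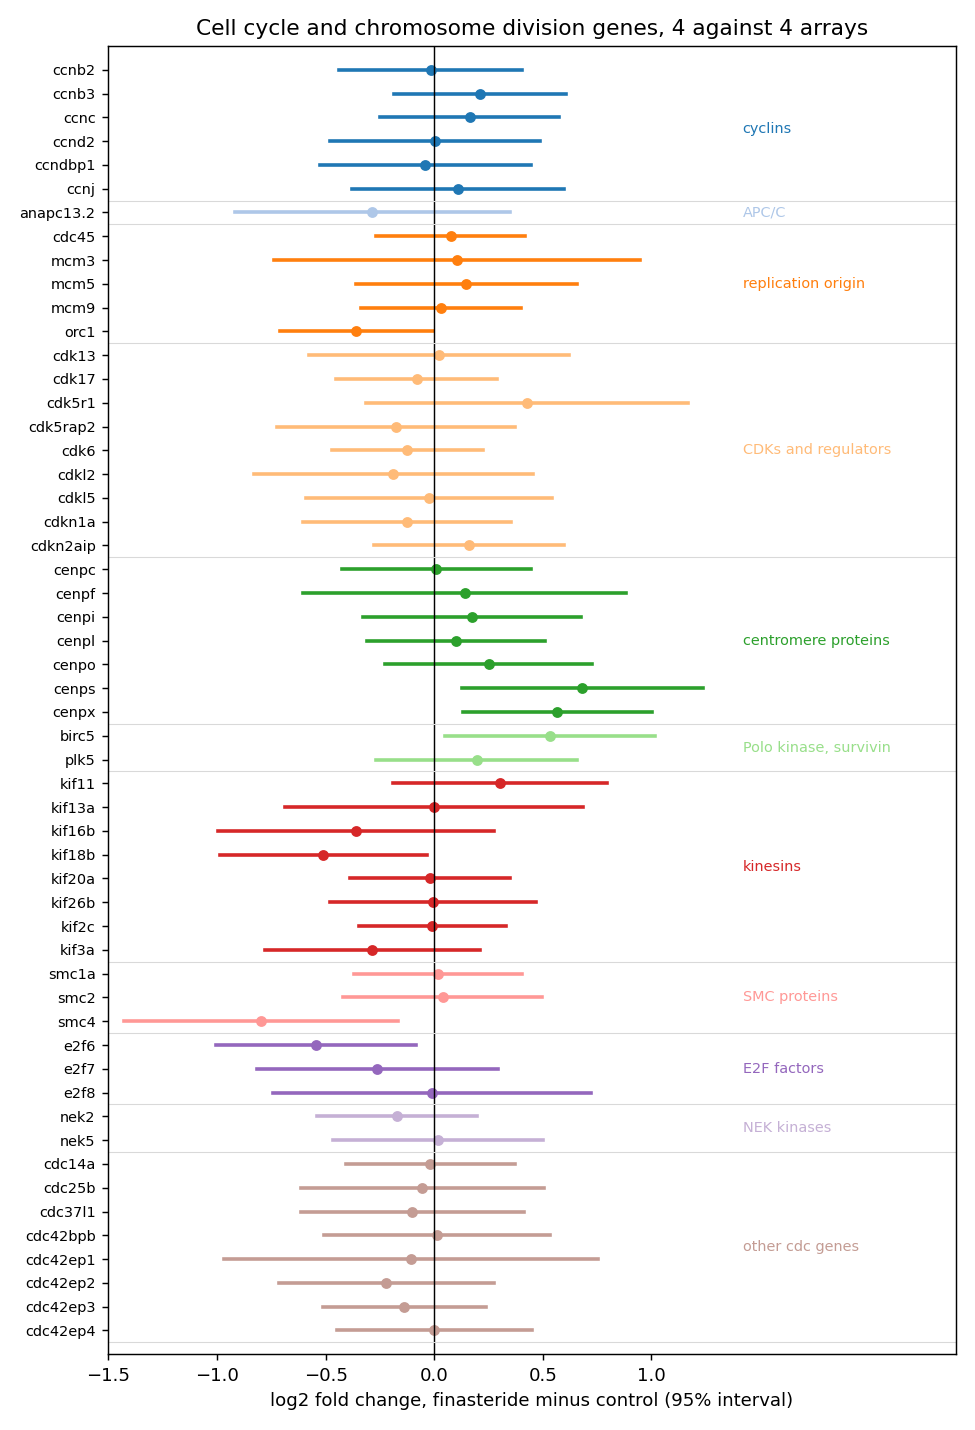
Log2 fold change (finasteride minus control, x axis) of the 54 tested genes, ordered by role, as points with 95% intervals of the limma fit over 4 against 4 arrays. The largest differences are smc4 at -0.80 and cenps at 0.68, and the intervals of 47 genes include 0.

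Centromere protein genes had 7 of 7 values above 0, where 51.2% of all named genes did, and a median log2 fold change of 0.17. Among them, cenps and cenpx encode small histone-fold proteins that bind each other, both in the inner kinetochore and, with the helicase FANCM, at damaged DNA. On control arrays 1 to 4 the level of cenps was -1.12, -1.11, -1.24 and -1.38, and on finasteride arrays 1 to 4 it was -1.07, -0.09, -0.89 and -0.08. All finasteride values lay above all control values, but finasteride 1 was only just above them while finasteride 2 and 4 were far above. Its log2 fold change was 0.68 (95% interval 0.13 to 1.24), a 1.60-fold difference, with 0.63 within slide 1 and 0.73 within slide 2. For cenpx the levels were -3.82, -3.86, -3.67 and -3.80 on control arrays and -3.16, -3.54, -3.43 and -2.74 on finasteride arrays. Control arrays lay close together and finasteride 4 was the highest, with no overlap between the groups. This gave a log2 fold change of 0.57 (0.13 to 1.00), with 0.75 within slide 1 and 0.38 within slide 2. Both genes were read from probes named specific, GT_EA519_mRNA_specific_006949 for cenps and GT_EA519_mRNA_specific_015148 for cenpx. Array finasteride 4 was the highest of its group for both, but finasteride 2 was high for cenps and low for cenpx.

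The other centromere genes differed by less than the spread between arrays. The inner kinetochore genes cenpo, cenpi and cenpl had log2 fold changes of 0.25 (-0.22 to 0.73), 0.17 (-0.33 to 0.67) and 0.10 (-0.31 to 0.51). The gene cenpc, whose protein links centromeric nucleosomes to the outer kinetochore, stood at 0.010 (-0.42 to 0.44). Of these, cenpo was higher within slide 2 (0.51) and not within slide 1 (-0.0036), and cenpc was 0.34 within slide 1 and -0.32 within slide 2. The large kinetochore protein gene cenpf stood at 0.14 (-0.60 to 0.88), with dim values from -5.79 on finasteride 4 to -4.40 on finasteride 3. Control values of cenpf, -5.58 to -4.65, lay inside that range. Within slide 1 cenpf was -0.22 and within slide 2 it was 0.50.

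Survivin, encoded by birc5, is the subunit of the chromosomal passenger complex that brings Aurora B to the centromere. Control levels were -4.50, -4.87, -4.87 and -4.30, and finasteride levels were -4.31, -3.73, -4.44 and -3.92. The groups overlapped, because control 4 was above finasteride 1 and 3. For birc5 the log2 fold change came to 0.53 (0.05 to 1.01), with 0.50 within slide 1 and 0.57 within slide 2. With normexp it was 0.99. The levels of birc5 were low, though its probe was well above background on all 8 arrays. The Polo family gene plk5 stood at 0.20 (-0.27 to 0.66), with 0.39 within slide 1 and 0.0037 within slide 2.

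**Figure D2:**
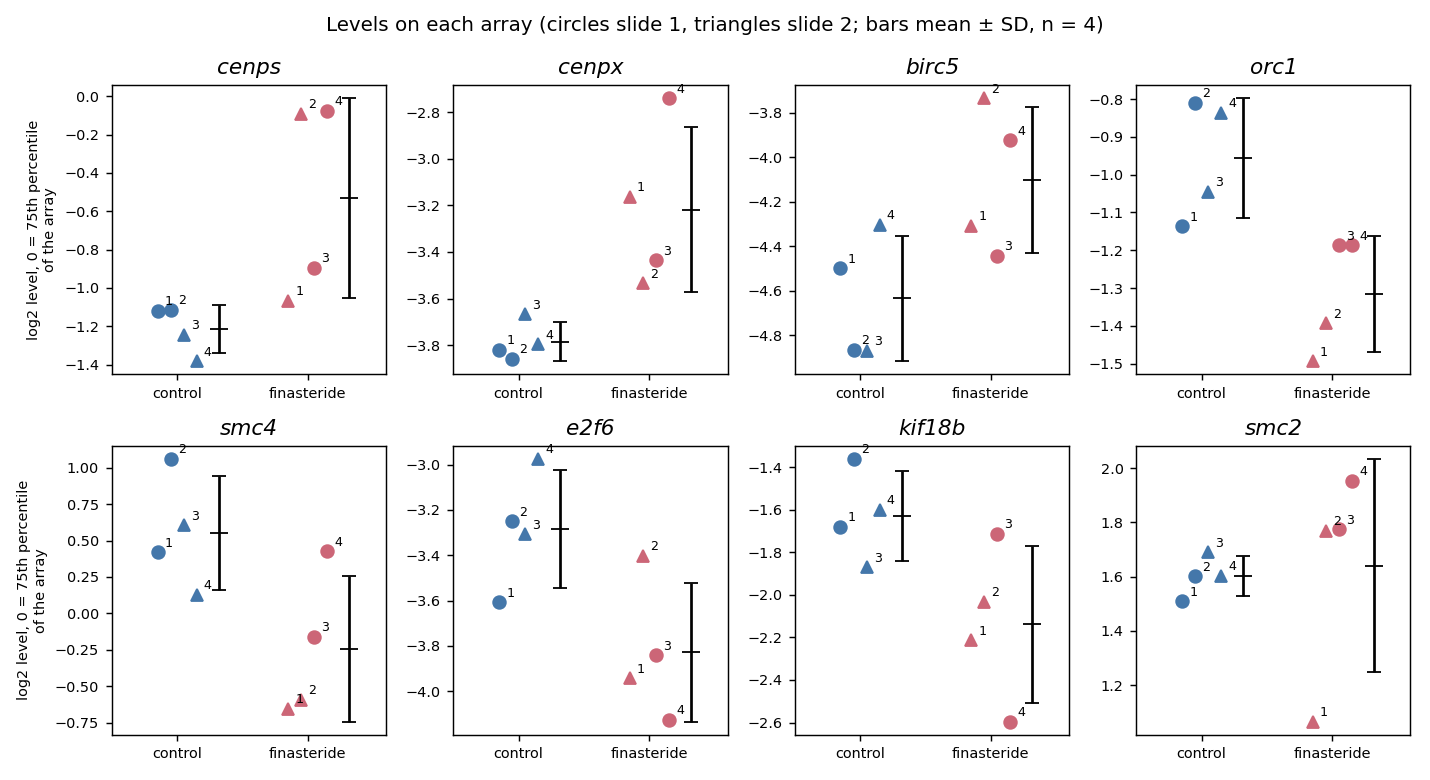
Level of 8 genes on each array (y axis, log2 relative to the 75th percentile of the array, with its own scale in each panel), numbered by replicate, with circles for slide 1, triangles for slide 2 and bars for mean ± SD (n = 4). Groups do not overlap for cenps, cenpx and orc1, while birc5, smc4, e2f6 and kif18b overlap, and smc2 is shown as the partner of smc4.

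SMC4 and SMC2 pair as the core of condensin, the ring that compacts mitotic chromosomes, and their transcripts were read from probes named specific. On control arrays the level of smc4 was 0.42, 1.06, 0.61 and 0.13, and on finasteride arrays it was -0.65, -0.59, -0.16 and 0.43. Finasteride 1 and 2 were low, and finasteride 4 lay among the control values. Its log2 fold change of -0.80 (-1.43 to -0.17) was the largest difference of the 54, with -0.61 within slide 1 and -0.99 within slide 2. On control arrays the level of smc2 was 1.51, 1.60, 1.69 and 1.60, and on finasteride arrays it was 1.07, 1.77, 1.78 and 1.95. Finasteride 1 was the lowest of all 8 arrays and the other finasteride arrays were above every control, which left smc2 at 0.040 (-0.42 to 0.50). Without finasteride 1 it stood at 0.23. The cohesin gene smc1a differed little, at 0.019 (-0.37 to 0.40). Of the other condensin genes on the array, ncapd2 and ncapd3 stood at 0.14 (-0.37 to 0.65) and 0.11 (-0.23 to 0.44). The dim gene ncapg2 stood at 0.31 (-0.13 to 0.75). It was seen on 1 control and 3 finasteride arrays and passed the filter only through the finasteride group, where it is higher. The gene ncaph2 was well above background on no array. The difference between smc4 and its partners was not tested.

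Replication origin genes were mixed. The gene orc1 encodes the largest subunit of the origin recognition complex, which marks where copying starts. Control levels were -1.14, -0.81, -1.04 and -0.84, and finasteride levels were -1.49, -1.39, -1.19 and -1.19. The groups did not overlap, but the highest finasteride array was close to the lowest control. They overlapped with normexp, with quantile normalization, with the median in place of the 75th percentile and in the deposited value table. For orc1 the log2 fold change was -0.36 (-0.71 to -0.005), a 1.28-fold difference, with -0.21 within slide 1 and -0.50 within slide 2, and the probe was an xhyb one, so whether it reads this gene alone was not tested. Parts of the replicative helicase stood close to 0: cdc45 at 0.076 (-0.27 to 0.42) and mcm5 at 0.15 (-0.36 to 0.66). The level of cdc45, read from an xhyb probe, ran from 4.69 to 4.85 on control arrays and from 4.70 to 5.07 on finasteride arrays. The helicase gene mcm3 stood at 0.10 (-0.74 to 0.95) on dim signal, from -6.12 on control 2 to -4.36 on control 4. It passed the filter only through the finasteride group, where it is higher. The DNA repair helicase gene mcm9 stood at 0.032 (-0.34 to 0.40).

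E2F factors turn on or silence genes for DNA synthesis, and the 3 measured were lower or near 0. The gene e2f6 encodes a repressor that works without the RB protein. Control levels were -3.61, -3.25, -3.31 and -2.97, and finasteride levels were -3.94, -3.40, -3.84 and -4.13. Only finasteride 2 lay above the lowest control. For e2f6 the log2 fold change came to -0.54 (-1.0 to -0.083), with -0.56 within slide 1 and -0.53 within slide 2, but with normexp background correction on median signals it was 0.48. The atypical repressor gene e2f7 stood at -0.26 (-0.82 to 0.29), which rested on finasteride 1, at -0.51 against 0.29 to 0.64 on the other 7 arrays. Without that array it was -0.0077. For the related gene e2f8 the value was -0.011 (-0.74 to 0.72), with levels from -5.70 on finasteride 4 to -4.18 on finasteride 1.

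Among the 8 kinesins tested, 7 had values below 0, but 4 of these (kif13a, kif26b, kif2c and kif20a) lay between -0.020 and -0.0011, and the median was -0.014. The gene kif18b, for a kinesin that shortens astral microtubules, had levels of -1.68, -1.36, -1.87 and -1.60 on control arrays and -2.21, -2.03, -1.71 and -2.60 on finasteride arrays. Finasteride 3 lay among the controls and the other 3 were below them. For kif18b the log2 fold change came to -0.51 (-0.99 to -0.034), with -0.63 within slide 1 and -0.39 within slide 2. With normexp it was 0.014. The gene kif11, for the motor that pushes spindle poles apart, stood on the other side, at 0.30 (-0.19 to 0.79). Its finasteride levels were 3.70, 3.48, 2.76 and 3.63, of which 3 lay above all controls (2.93 to 3.22) and finasteride 3 below them. The microtubule depolymerase gene kif2c, read from an xhyb probe, was among the steadiest genes. Its levels were 3.23 to 3.41 on control arrays and 3.08 to 3.47 on finasteride arrays. The log2 fold change of kif2c was -0.0078 (-0.35 to 0.33). The cytokinesis motor gene kif20a stood at -0.020 (-0.39 to 0.35). The kinesins of intracellular transport kif3a, of the cilium, and kif16b, of endosomes, stood at -0.29 (-0.78 to 0.21) and -0.36 (-0.99 to 0.28). Within slide 1 kif16b was 0.14 and within slide 2 it was -0.86.

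Genes with cyclin symbols stood close to 0, with 4 of 6 higher and a median of 0.057. They include ccndbp1, at -0.040 (-0.52 to 0.44), which encodes a cyclin D binding protein, not a cyclin, and was kept by symbol. The mitotic B cyclin gene ccnb2 had levels of 1.93, 1.73, 2.09 and 2.13 on control arrays and 2.12, 1.89, 1.58 and 2.23 on finasteride arrays. The groups overlapped almost wholly, and its log2 fold change was -0.015 (-0.44 to 0.41). The gene of the other B cyclin measured, ccnb3, which in mice is needed for oocyte meiosis, stood at 0.21 (-0.18 to 0.61), with 3.24 to 3.71 on control arrays and 3.42 to 3.91 on finasteride arrays. The G1 cyclin gene ccnd2 stood at 0.0028 (-0.48 to 0.49), and without control 4, the highest array for it, at 0.19. The Mediator cyclin gene ccnc stood at 0.16 (-0.25 to 0.58). The single gene of the anaphase-promoting complex, anapc13.2, stood at -0.28 (-0.92 to 0.35), and at 0.018 without finasteride 1, where its level was 0.47 against 1.50 to 1.89 on the other arrays.

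Cyclin-dependent kinases and their regulators had 3 of 9 values above 0 and a median of -0.080. The G1 kinase gene cdk6 stood at -0.12 (-0.47 to 0.22), and cdkn1a, whose product p21 arrests the cycle, at -0.13 (-0.60 to 0.35). Both groups of cdkn1a overlapped, with 0.71 to 1.11 on control arrays and 0.48 to 1.36 on finasteride arrays. The gene of the CDK5 activator p35, cdk5r1, stood at 0.43 (-0.31 to 1.17) on dim signal. It passed the filter only through the finasteride group, where it is higher. The gene cdkn2aip, of the p53 pathway, stood at 0.16 (-0.28 to 0.60). Without finasteride 4, cdkn2aip stood at -0.017. The NEK kinase genes nek2, which acts in centrosome separation, and nek5 stood at -0.17 (-0.54 to 0.20) and 0.016 (-0.47 to 0.50).

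The remaining cdc genes had 2 of 8 values above 0 and a median of -0.078. The gene cdc25b, for a phosphatase that activates CDK1, stood at -0.054 (-0.61 to 0.50). The CDC42 effector genes cdc42ep2 and cdc42ep3 stood at -0.22 (-0.72 to 0.27) and -0.14 (-0.51 to 0.24). Of the 54 genes, cdc42ep1 varied most within groups, with a pooled SD of 0.65. Its levels ran from -3.84 to -2.83 on control arrays and from -4.49 to -2.57 on finasteride arrays, and the log2 fold change was -0.11 (-0.97 to 0.76). The next most variable were mcm3, cenpf, cdk5r1 and e2f8 (pooled SD 0.54 to 0.63). The least variable were kif2c, cdc45, cdk6, orc1 and nek2 (0.13 to 0.18). All of these but cdk6 were read from xhyb probes, and whether those probes read these genes alone was not tested.

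Variation between the finasteride arrays was wider than between the controls for most genes, a comparison added after seeing the data, as were those by array and by slide that follow. The SD was larger in the finasteride group for 48 of the 54 (88.9%), against 73.9% of all named genes. In the control group the median SD was 0.20, and in the finasteride group 0.37, where all named genes had 0.22 and 0.35. Without finasteride 1 the SD of the finasteride group was larger for 37 of 54 (68.5%), against 63.3% of all named genes, and its median was 0.28. The exceptions over all 4 arrays were mcm3, cdk5r1, ccnd2, cenpi, cdc42ep3 and orc1.

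**Figure D3:**
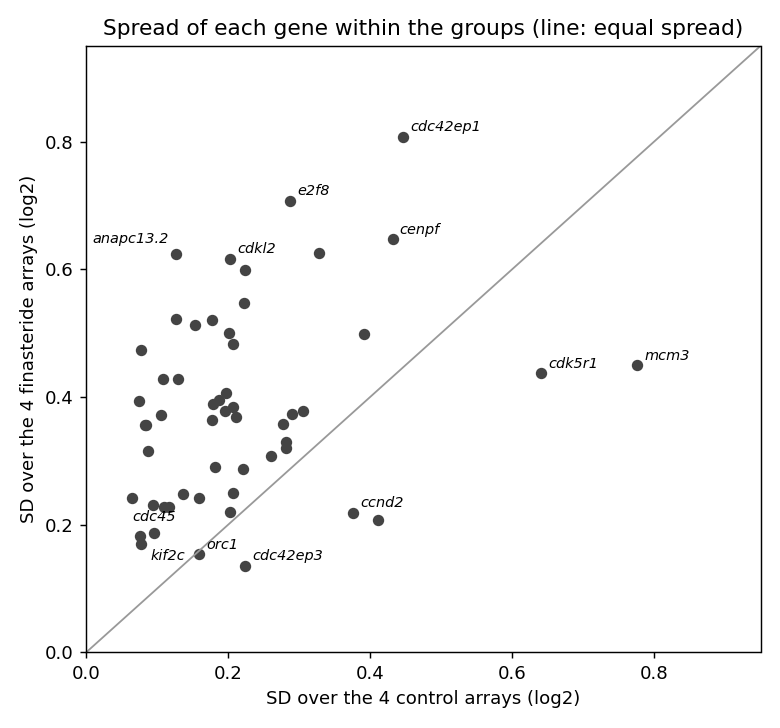
SD of each of the 54 genes over the 4 control arrays (x axis) and the 4 finasteride arrays (y axis), in log2 units, with the line of equal spread. Of the points, 48 lie above the line, with cdc42ep1 the most variable on finasteride arrays.

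Finasteride 1 was the array that stood apart for these families. Taken as deviations from each gene's mean over the 8 arrays, the 54 genes had a median of -0.22 on finasteride 1, against -0.040 to 0.082 on the other 7 arrays, while the median over all named genes on finasteride 1 was -0.020. It was the lowest of its group for 24 of the 54 genes (44.4%), against 32.6% of all named genes, and the highest for 9 (16.7%), against 25.1%. The low values were spread over roles, with medians of -0.56 for SMC genes, -0.44 for kinesins, -0.39 for E2F genes, -0.35 for cyclin-dependent kinases and regulators and -0.32 for the remaining cdc genes. Genes with cyclin symbols, ccndbp1 among them (0.22), and replication origin genes (0.15) lay on the other side on the same array. Genes such as kif3a (1.74 against 2.20 to 2.63 on the other finasteride arrays), cdk5rap2 of the centrosome (-1.52 against -0.87 to -0.41) and nek5 (0.61 against 1.18 to 1.54) were low there, and mcm5 (1.00), ccnj (2.97) and kif11 (3.70) were at their highest. Not all of these medians by role were particular to finasteride 1. On finasteride 4 they were -0.57 for the 3 E2F genes, 0.21 for genes with cyclin symbols and 0.24 for replication origin genes. The remaining cdc genes had a median of -0.25 on finasteride 3. Without finasteride 1 the median log2 fold change of the families was 0.048, with 34 of 54 values higher.

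**Figure D4:**
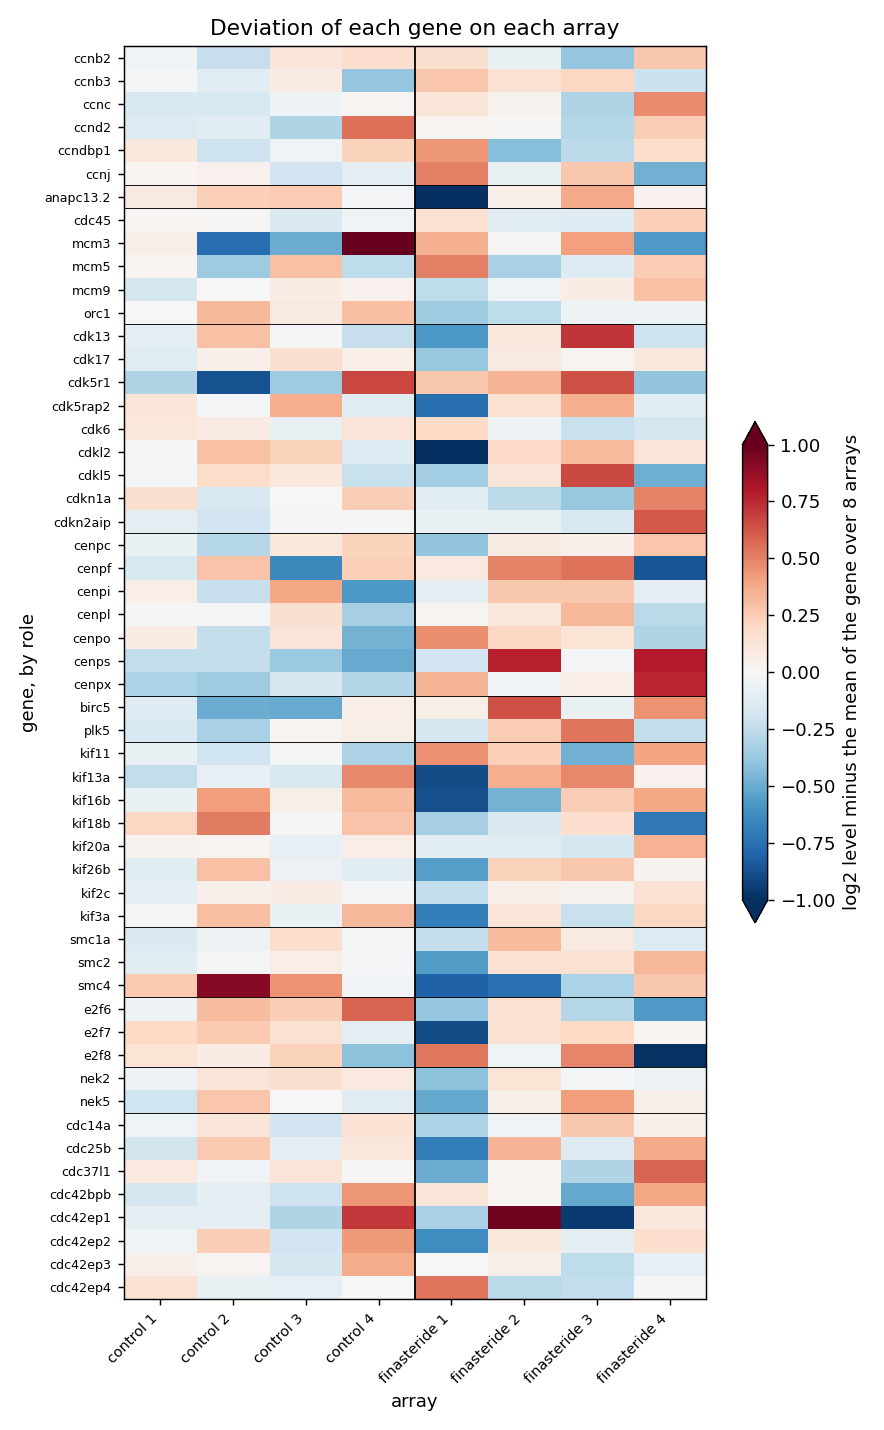
Deviation of each of the 54 genes (rows, by role) on each array (columns) from the mean of that gene over the 8 arrays, in log2 units on a colour scale that ends at -1 and 1. Finasteride 1 has the most low values, with a median of -0.22. Genes with cyclin symbols have a median of 0.22 there and of 0.21 on finasteride 4.

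Each slide held 2 arrays of each group, so the difference could be read on separate arrays. It had the same direction within both slides for 22 of the 54 genes (40.7%), against 51.0% of all named genes, with 12 higher and 10 lower in both. The 7 genes at an unadjusted p under 0.05 were among these, a direction that a low p over both slides favours. With slide as a block, 0 of the 54 passed in limma, and 5 had an unadjusted p under 0.05. Without the block, 7 of the 54 and 4.00% of all probes had such a p. The share of all probes with the block is not given here.

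Other genes of the cell cycle, outside these families, were read from a separate list. Of 117 genes listed for DNA synthesis, the kinetochore, condensin, cohesin and checkpoints, 31 were on a probe and 28 were tested, of which 0 passed over all probes in either direction. Values were higher for 16 and lower for 12, with a median of 0.028, where 51.2% of all named genes were higher. Among the 16, gmnc (0.21) and ncapg2 passed the filter only through the finasteride group, where they are higher. The kinetochore gene nsl1, of the MIS12 complex, had levels of -2.09, -1.87, -1.91 and -2.14 on control arrays and -1.50, -0.86, -1.79 and -1.80 on finasteride arrays. The groups did not overlap, and finasteride 2 was the highest. Its log2 fold change was 0.51 (0.01 to 1.02), read from an xhyb probe, with 0.18 within slide 1 and 0.85 within slide 2. The condensin II gene ncapg2 stood at 0.31 (-0.13 to 0.75), on dim signal that passed the filter only through the finasteride group. The gene lin9, of the complex that controls mitotic genes, stood at 0.30 (-0.15 to 0.75). The spindle protein gene hmmr stood at -0.41 (-1.16 to 0.33).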

How the data were processed

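RNA, extracted with TRIzol and labelled with Cy3 per the labels' protocols, was read on 8 one-colour arrays. The authors deposited scanner files of spot intensity, for which the file headers name Feature Extraction 10.7.1.1 and the build JGI 4.1. A deposited value table adds log2 values, with the same median, 7.25, on every array, and its steps are not given in the sources used here.

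Outlier and control spots were left out, log2 processed intensity was averaged per probe, and each array's 75th percentile was subtracted. The filter (well above background on 3 or more arrays in 1 or both groups) left 25652 of 32899 probes, fitted with group alone in limma 3.58.1 under R 4.3.3 (lmFit and eBayes, two-sided) and Benjamini-Hochberg adjustment over all of them at a threshold of 0.05. Only the limma fit was checked on simulated arrays, with noise drawn independently for each probe and array. Reading, normalization, filter and naming were not checked in this way. Where a gene had several probes, the brightest on average was used. Probes were named through accessions in RefSeq's gene table (UCB_Xtro_10.0) (5891 probes matched, 4872 with a symbol), used for names only because the builds differ. Of the 54 genes, 16 were read from probes named xhyb and 38 from probes named specific. The number of arrays limits the precision, with a median half-width of 0.48 for the 95% intervals of the 54 genes.

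The genes and lists were chosen with earlier results of these data known. Genes were named if their groups did not overlap, if they had the lowest p of their role, if they were textbook members, or if they were among the 5 most or 5 least variable. Others were named after their values were seen. Marker lists were counted as follows, as tested genes with higher values: spermatogonia 1 of 1, spermatid and flagellum 3 of 3, Sertoli cells 2 of 2, Leydig cells 1 of 2, leukocytes 2 of 2, erythrocytes 1 of 2 and endothelium 0 of 2, with 0 past the threshold, and no peritubular gene was on a probe. A count for meiosis is not reported here. Deviations of same-numbered arrays from their group means correlated at 0.30, 0.36, -0.057 and -0.033 for numbers 1 to 4. Differently numbered arrays were not compared in this way, so whether the numbers mark pairs cannot be told. The fit reported did not take them as pairs. The planned search of promoters for motifs was not run, since no sequences were used here.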

Additional observations from a re-analysis of the deposited data

Results flagged for a closer look

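An array lay far from its group in 6 of 108 groups of 4 values, about the number that chance alone would give (1 in 20, or 5.4). For 3 genes it was finasteride 1 that lay low: cdk17 at -0.75 against -0.34 to -0.27 on the other finasteride arrays, cdkl2 at -4.20 against -3.06 to -2.88, and e2f7 at -0.51 against 0.40 to 0.58. For 2 genes finasteride 4 lay high: cdkn2aip at 0.049 against -0.71 to -0.63, and kif20a at 0.16 against -0.37 to -0.29. For kif26b, control 2 lay high, at 0.32 against -0.084 to -0.028 on the other control arrays.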

How the results depend on the processing

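Under every alternative run, 0 of the genes of these families passed in limma. The median log2 fold change was 0.12 with normexp on median signals, where all named genes had 0.28, and stayed within the spread between arrays otherwise. It ran from -0.058 to 0.048 with 1 array left out and was 0.053 with array weights. The 2 slides leaned in opposite directions, with 0.073 within slide 1 (37 of 54 higher) and -0.092 within slide 2 (19 of 54 higher). All named genes had 0.045 and -0.023 there. Genes without overlap between groups numbered 3 in the analysis reported (2.08% of all probes) and 0 with normexp (0.062% of all probes). With quantile normalization there was 1 (cenps), or 1.85% of the 54, against 2.03% of all probes. The deposited value table gave 2 (cenps and cenpx), against 2.10% of all probes. With the median in place of the 75th percentile there were 3 (cenps, cenpx and kif18b), against 2.01% of all probes. There were 13 within slide 1 and 17 within slide 2, where 2 against 2 arrays gave 28.5% and 20.4% of all probes. With 1 array left out there were 3 to 7. These were 3 without control 2, 6 without finasteride 3 and 7 without finasteride 4, among 2.66%, 4.72% and 5.62% of all probes. Without finasteride 4, the log2 fold changes of cenps and cenpx were 0.53 and 0.41. Normexp moved more genes than any other alternative, against a median over all probes of 0.23. The sign turned for e2f6 (0.48) and kif18b (0.014), and 11 other named genes moved by more than the spread between replicates, to 1.07 for e2f8, 1.01 for cdk5r1, 0.99 for birc5, 0.97 for mcm3, 0.91 for cenpf, 0.82 for cdc42ep1, 0.80 for plk5, 0.43 for ccnd2, 0.26 for cdk6, 0.095 for cdc42ep3 and -0.11 for orc1. The cause of these was not tested. Of 557 values of the 26 named genes whose interval includes 0, 80 turned sign, in 18 genes; such turns were not counted as reversals, a choice made after seeing the data. With the replicate block, 0 genes passed in limma (lowest adjusted p 0.920). The block left the levels as they were, so the count of 3 genes without overlap (2.08% of all probes) could not differ. The median of -0.0030 was likewise fixed, since each number holds 1 array of each group. Numbers 1 and 2 had deviations that correlated above 0.1, and 3 and 4 did not. Dim signal limits mcm3, cdk5r1, cenpf and e2f8, and 54 of 222 genes of the families were read.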

Other observations

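CENP-S and CENP-X also act with the Fanconi anaemia proteins in the repair of crosslinked DNA. After the values of cenps and cenpx were seen, genes on the array with a fanc or faap symbol, and brip1, were looked up. Genes of that pathway with other symbols were not looked up. Of 5 genes found, 3 were tested. The log2 fold change was 0.085 (95% interval -0.31 to 0.48) for fanca, 0.082 (-0.40 to 0.56) for the helicase gene brip1 and 0.0011 (-0.49 to 0.49) for fancd2, with a limma adjusted p of 1.00 each. The genes fancb and fance did not pass the filter on dim signal.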
